A study of Mus musculus with 6 samples.

Results

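Of the 25697 probes on the array, 3 were selected as clearly above background in the high passage cell line EPC_Late and below the limit of detection in the other 2 lines. They are LOC100047937 (probe ILMN_2706906), LOC100047173 (probe ILMN_2651054) and Pcdha6 (probe ILMN_3076948). Members were selected on the measured detection p-value, the share of negative control probes on the same array at least as bright as the probe. It had to be below 0.01 on both EPC_Late arrays and at least 0.05 on all 4 arrays of the other lines. The gene names Mxi1, Dnajc15 and Gadd45a were left out, and 1 further probe, for Mxi1, met the limits. With the plain limit for above background, 0.05, in EPC_Late as well, 39 probes met the rule. The levels that chose the members are described below without a test.

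The lines were grown from lung cells of athymic nude mice, sorted by surface markers that included the presence of Flk-1, a receptor of endothelial cells, and the absence of the blood cell marker CD45. EPC is the primary endothelial progenitor line and was harvested at passage 3 to 6. EPC_acLDL, harvested at passage 3 to 6, was obtained by loading cells with fluorescent acetylated LDL, a particle that endothelial cells take up, and replating the positive cells alone. EPC_Late is the EPC_acLDL line after long culture and was harvested at passage 16 to 20. All 3 were kept in mouse endothelial medium with serum. The labels give no drug or genetic change for any line, and each had 2 arrays of total RNA. The methods describe independent experiments run in duplicate, and neither they nor the labels say which of these the 2 arrays of a line were, so that p-values measure the spread between these arrays, which may be technical. Each line is a single sorted population, and passage cannot be told apart from the history of that population.

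The clustered protocadherins, to which Pcdha6 belongs, are cadherin-like adhesion proteins best known from neurons. In the alpha and gamma clusters each variable first exon has its own promoter and is spliced to constant exons that the whole cluster shares, and single cells use different choices of first exon. The other 2 members carry provisional locus names, and the reference gene table used here held neither of them. LOC100047937 has the same search key in the deposited file, an identifier of the array design, as Aldh1l1. Aldh1l1 encodes an enzyme of folate metabolism that releases carbon dioxide from formyltetrahydrofolate and is widely used as a marker of astrocytes.

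The intensities of LOC100047937 were 1119.3 and 1120.9 in EPC_Late, against 353.0 and 404.6 in EPC and 357.4 and 417.2 in EPC_acLDL. The lower EPC_Late array was 2.68 times as bright as the highest of the other 4 arrays. The detection p-value was 0 on both EPC_Late arrays and 0.08647 to 0.1391 elsewhere. After background correction and quantile normalization, its log2 signal in EPC_Late was 9.62 ± 0.00 (SD, n = 2). Because the other lines gave only a bound, its signal in EPC_Late was at least 6.91-fold that of EPC and at least 7.26-fold that of EPC_acLDL. Such a bound sets the EPC_Late mean against the lowest signal above background on each array of the dim line, or against the probe itself where that was higher. It holds on the corrected scale with its offset of 16, and was 3.8-fold and 3.91-fold with an offset of 50, and 2.51-fold and 2.55-fold on uncorrected intensities. The setting with an offset of 50 also fitted the background without the detection p-values, so that it differs in more than the offset.

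LOC100047173 read 810.4 and 774.9 in EPC_Late, 409.2 and 447.2 in EPC_acLDL, and 324.5 and 403.9 in EPC. Both EPC_Late arrays stood above all others, the lower one 1.73 times as bright as the highest of the other 4. Its detection p-values in EPC_acLDL, 0.0614 and 0.06266, were the nearest to the limit of any member. The signal in EPC_Late was 8.79 ± 0.09 (SD, n = 2) on the normalized log2 scale. On this scale it was at least 3.89-fold that of EPC and at least 4.09-fold that of EPC_acLDL. The bounds were 2.38-fold and 2.45-fold with an offset of 50, and 1.75-fold and 1.77-fold on uncorrected intensities. The function of this locus is not given in the sources used here.

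Pcdha6 had intensities of 270.2 and 293.6 in EPC, of 364.2 and 367.1 in EPC_acLDL, and of 654.6 and 744.7 in EPC_Late. The 3 lines did not overlap, for EPC_Late by the selection and for the other lines below background. In EPC it lay among the negative controls, with detection p-values of 0.8622 and 0.8734. In EPC_acLDL these were 0.119 and 0.2945. The normalized log2 signal in EPC_Late was 8.45 ± 0.24 (SD, n = 2). On this scale that was at least 3.07-fold the signal of EPC and at least 3.23-fold that of EPC_acLDL, with bounds of 1.54-fold and 1.57-fold on uncorrected intensities and 2.0-fold and 2.06-fold when the offset was 50.

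**Figure D1:**
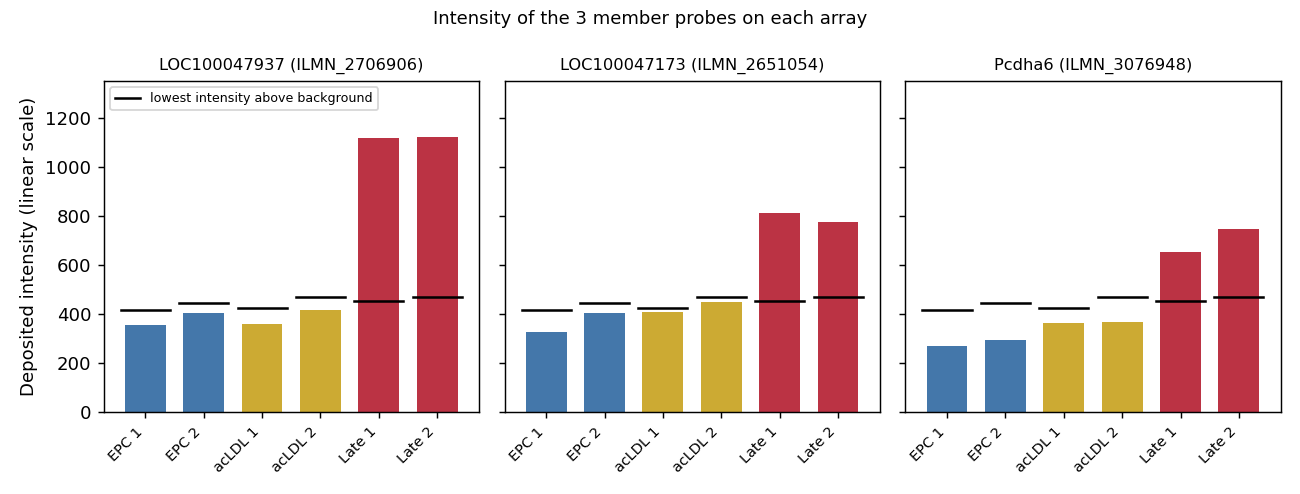
Deposited intensity (linear scale, from 0) of the 3 member probes on each of the 6 arrays, with bars colored by line and a black line at the lowest intensity above background on that array. Every EPC_Late bar passes its line, and no bar of EPC or EPC_acLDL does.

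On the deposited scale, before any correction, the mean of EPC_Late over the mean of EPC was 2.96 for LOC100047937, 2.18 for LOC100047173 and 2.48 for Pcdha6. Over EPC_acLDL it was 2.89, 1.85 and 1.91 in the same order. The median of this ratio over all 25697 probes was 1.06 against either line. As a lower bound the median log2 difference of the members was 1.96 to EPC and 2.03 to EPC_acLDL on the corrected scale. The fitted medians, 3.07 and 2.41, are not exact differences, since both other lines lay below background, and were 1.28 and 0.90 on uncorrected intensities.

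Between EPC_acLDL and EPC the members were limited by the selection itself, which kept both lines below background. In limma 3.30% of all probes tested (77 of 2333) passed an adjusted p of 0.05 in this comparison and 0 of the 3 members did, from which nothing is read about them. No fold is given for the same reason. The intensities of LOC100047937 overlapped between EPC and EPC_acLDL. Those of LOC100047173 and Pcdha6 were higher on both EPC_acLDL arrays than on both EPC arrays, below background in all 4. The share of all probes separated in this way was not counted, so that nothing is read from this either.

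Other probes that share a gene name or search key with a member were above background on no array. The search key of LOC100047937 covers 4 probes, and ILMN_2706906 was the single one above background on any array. The second probe of LOC100047937, ILMN_2703392, read 324.7 and 361.8 in EPC_Late, 294.3 and 317.3 in EPC, and 283.2 and 292.0 in EPC_acLDL. Both EPC_Late arrays were higher than the 4 others, the lower one 1.02 times the highest of them, with detection p-values of 0.5915 and 0.4724. The Aldh1l1 probe ILMN_3100276 came nearest to background, with 433.1 and 445.3 in EPC_Late, 359.2 and 403.5 in EPC, and 347.6 and 434.1 in EPC_acLDL. Its detection p-values in EPC_Late were 0.0614 and 0.06642, and both EPC_Late arrays were above both EPC arrays, while EPC_acLDL replicate 2 lay between the 2 EPC_Late arrays. The Aldh1l1 probe ILMN_3027287 read 305.9 and 290.5 in EPC_Late and 277.7 to 300.3 elsewhere, well inside the range of the negative controls.

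The second probe of Pcdha6, ILMN_3155884, read 300.2 and 373.7 in EPC_Late, 337.0 and 355.5 in EPC, and 301.9 and 353.0 in EPC_acLDL. All 3 lines overlapped, and it was above background on none of the 6 arrays. No other probe carried the name or search key of LOC100047173. Which exons or transcripts the probes read, and whether any of them shares sequence with other genes, was not tested, since probe sequences were not used here. Each member thus rests on 1 probe.

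**Figure D2:**
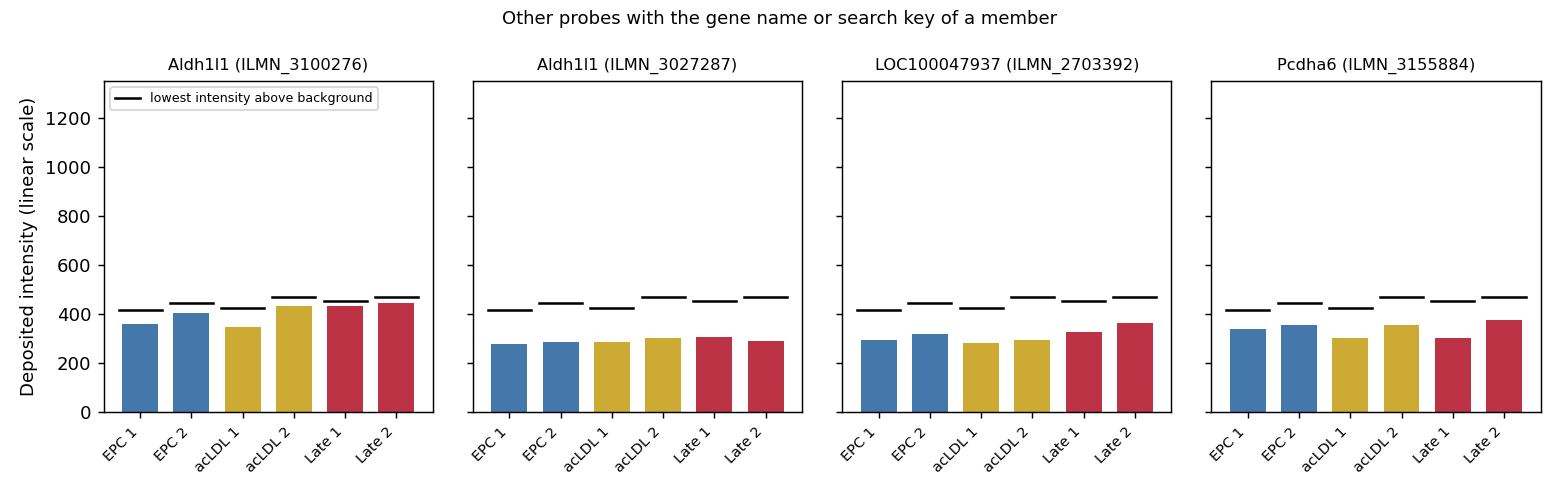
Deposited intensity (linear scale, from 0) on each of the 6 arrays for the 4 other probes with a gene name or search key of a member, on the same vertical scale as the plot of the members. The black lines mark the lowest intensity above background on each array, which none of the bars reaches.

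The rest of the protocadherin clusters was examined after the values of Pcdha6 had been seen, and is given as a description. The array holds 50 probes for 49 clustered protocadherin genes, of which 9 are for the alpha, 22 for the beta and 19 for the gamma cluster. Above background on no array were 44 of them, and 3 were so on all 6 arrays (Pcdha11, Pcdhb1 and Pcdhga4). Few probes of any kind passed this limit, 8.47% to 9.2% of all probes on each array. The member was the single one of the 50 above background on both EPC_Late arrays and no other. The ratio of the EPC_Late mean over the EPC mean had a median of 1.06 over the 49 other probes, which was also the median over all probes, and was 1.18 at most. Since the member was selected for being bright in EPC_Late alone, its own ratio of 2.48 is no test of a difference from them. Pcdha11, the 1 other alpha probe above background, read 503.0 and 501.6 in EPC_Late, 510.9 and 494.8 in EPC_acLDL, and 475.7 and 473.2 in EPC. EPC_Late overlapped EPC_acLDL, and both EPC arrays were lower than all others. On the normalized log2 scale all 3 lines overlapped.

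**Figure D3:**
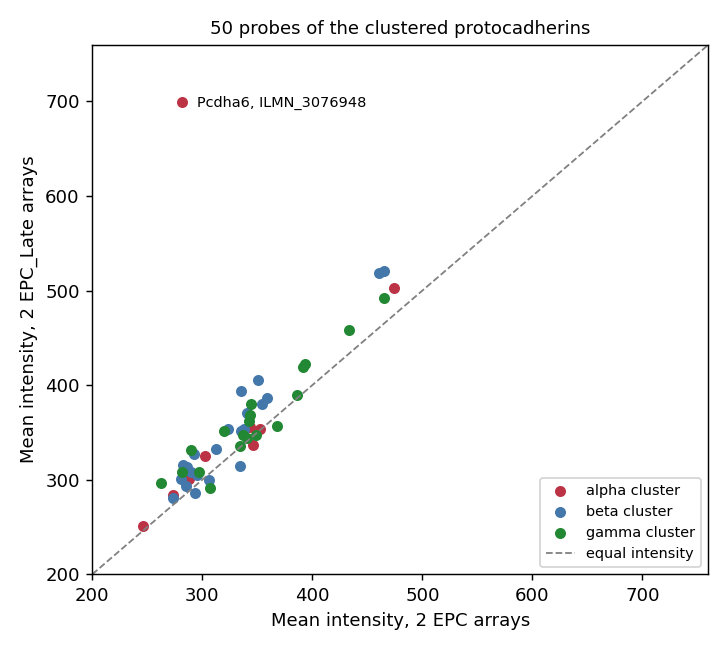
Mean deposited intensity on the 2 EPC_Late arrays against that on the 2 EPC arrays for the 50 probes of the clustered protocadherins, colored by cluster, with a dashed line at equal intensity. The Pcdha6 member stands at 281.9 in EPC and 699.6 in EPC_Late, and the other 49 points lie near the dashed line, with a ratio of EPC_Late over EPC of at most 1.18.

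The size of the set followed from the limits placed on both sides. Both EPC_Late arrays were below 0.01 for 1043 probes. Of these, 1021 were above background (below 0.05) on all 4 other arrays and 18 on 1 to 3 of them. The same limits with EPC as the bright line gave 1 probe, for Mylk, a kinase of myosin light chain, named here after its values were seen. With EPC_acLDL as the bright line they gave 0 probes. At a limit of 0.1 in the dim lines Pcdha6 alone remained, and at 0.2 no member did. Loosening it to 0.01 gave 28 probes for EPC_Late, 27 for EPC and 8 for EPC_acLDL. Without EPC_Late replicate 1, 7 probes met the limits.

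**Figure D4:**
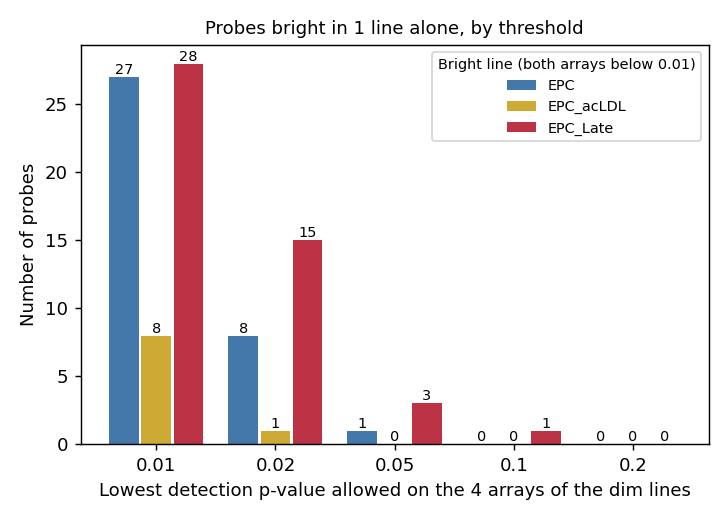
Number of probes (vertical axis, from 0) that 1 line shows below 0.01 on its 2 arrays, with detection p-values at or above the limit on the horizontal axis on the 4 arrays of the other lines, for each line as the bright one. The counts at 0.05 are 3 for EPC_Late, 1 for EPC and 0 for EPC_acLDL, and at 0.01 EPC_Late and EPC stand at 28 and 27.

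Just outside the limit for the dim lines stood AW121567, listed as a synonym of Fam155a, and Ifi35, each with a lowest detection p-value of 0.04887 there. AW121567 read 1199.6 and 1220.5 on the EPC_Late arrays and 383.0 to 468.1 on the others. Ifi35, a gene induced by interferon, read 679.0 and 728.1 in EPC_Late and 364.2 to 427.5 elsewhere. Just inside it were LOC100047173, at 0.0614, and LOC100047937, at 0.08647. On both sides of this limit the lowest EPC_Late array was above all 4 arrays of the other lines, which the limits themselves largely fix.

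Just outside the limit for EPC_Late stood Ece1, an enzyme that makes endothelin, and Tef, a transcription factor of the circadian output. Ece1 read 542.4 and 537.6 in EPC_Late with detection p-values of 0.01128 and 0.0188. Tef read 527.6 and 610.9, with 0.01629 and 0.002506. All 3 members had a detection p-value of 0 on both EPC_Late arrays, so that none lay near this limit.

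With the limit for the dim lines at 0.01, 25 probes joined the members, and 8 of these had a detection p-value of 0 on both EPC_Late arrays. Beside AW121567 and Ifi35 they were Shisa3, Thra, Nnmt, Hbp1, Ddit3 and Rnf41. Shisa3 read 1338.1 and 1307.1 in EPC_Late and 386.9 to 498.7 elsewhere. The study's gene table lists Shisa3 in the opposite direction for both comparisons of EPC_Late, while all directions here follow the labels of the deposited arrays. Nnmt, which methylates nicotinamide, read 1117.3 and 1157.5 in EPC_Late and 408.0 to 518.0 elsewhere. Hbp1, a repressor of cell cycle genes, read 1028.0 and 1156.5 against 365.0 to 489.9. In each of these the lowest EPC_Late array was above all 4 others, which the selection by detection p-value largely fixed, as for the members.

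No member is in any of 19 gene lists that describe the surroundings of the selection, 6 of them for cell types. Of the 70 list probes tested, 12 (17.1%) were higher and 16 (22.9%) lower in EPC_Late than in EPC. The shares over all probes tested were 10.9% and 13.0%. Against EPC_acLDL 17 (24.3%) were higher and 11 (15.7%) lower, beside 9.34% and 11.5% over all probes. This split followed the scaling, with 10 higher and 13 lower against EPC_acLDL under a shift to the 75th percentile, and 17 higher and 13 lower against EPC without normalization. Leaving out 1 EPC_acLDL or EPC_Late array lowered the 28 calls against EPC_acLDL to between 11 and 15, the lowest without EPC_acLDL replicate 1. Both comparisons use the same EPC_Late arrays.

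Among targets of ATF4 and the unfolded protein response, 3 of 4 tested were higher in EPC_Late than in EPC and 4 of 4 than in EPC_acLDL, with 2 to 3 and 3 to 4 over the other scalings and background corrections and the fits without 1 array. Over these 4 of the list's 29 probes the median log2 difference to EPC was 0.92, against 0.006 over all probes tested. Most probes of the other lists in this paragraph went untested as well. Tested were 5 of 36 for interferon, 4 of 45 for G1/S and DNA replication, and 7 of 27 for ribosome biogenesis and MYC targets. Trib3, a pseudokinase induced under stress, differed from EPC by 2.77 (SE 0.14, adjusted p = 0.000123 from limma) and Ddit3, a transcription factor of the stress response, by 1.29 (SE 0.16, adjusted p = 0.00236 from limma). In the interferon list 3 of 5 probes were higher than in EPC, with a median of 2.16, and 4 of 5 than in EPC_acLDL. They included both probes of Irf1, a transcription factor of the interferon response, at 2.91 and 2.16 (adjusted p = 0.00022 and 0.00096 from limma). Both were above background on all 6 arrays. The other call against EPC was Ifi35, which was at least 3.12-fold higher, and Psmb8 was the further call against EPC_acLDL. Ifi35 and Psmb8 were tested only because both EPC_Late arrays showed them above background. For them the filter itself favored a higher level in EPC_Late, and without them the higher calls rest on Irf1 alone. In the G1/S and DNA replication list 3 of 4 were lower in EPC_Late against either line, with a median of -0.79 to EPC. Tyms, which makes thymidylate, differed by -1.25 and E2f1 by -1.14 (adjusted p = 0.000972 and 0.000953 from limma), and the study's gene table lists both in the opposite direction. Against EPC, 2 of the 4 were called in each other scaling or background correction and in each fit without 1 array. In the ribosome biogenesis and MYC target list 4 of 7 were lower and 1 higher in EPC_Late than in EPC, with a median of -0.47, and 4 were lower than in EPC_acLDL. Cad, which starts pyrimidine synthesis, differed from EPC by -1.72 (adjusted p = 0.000271 from limma) and Odc1, which starts polyamine synthesis, by -1.11 (adjusted p = 0.0144 from limma). Max, the partner of MYC, was the 1 higher call, at 1.02 (adjusted p = 0.0092 from limma). Over the other scalings and background corrections the lower calls were 2 to 4 against EPC, the fewest without normalization, and 4 to 5 against EPC_acLDL. The lower calls against EPC fell to 1 without EPC replicate 1 or EPC replicate 2 and to 2 when 1 EPC_Late array was left out, and those against EPC_acLDL to 2 without any 1 array of EPC_acLDL or EPC_Late.

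Summed deposited intensities of marker lists for other cell types are given for each line, on a scale where the median probe was 1.06 times as bright in EPC_Late as in either other line and where most markers lay below background. Summed over the 20 probes for fibroblast or mesenchymal genes, intensity was 13189 to 13397 in EPC_Late, 9357 to 9823 in EPC_acLDL and 8263 to 8529 in EPC. Of these probes 16 were above background on no array. The calls against EPC were mixed: Sparc, a matrix glycoprotein, differed by 1.94 and Col1a2, a collagen chain, by 0.43, while Twist1, a mesenchymal transcription factor, differed by -0.64 (adjusted p = 0.00022, 0.047 and 0.0152 from limma). Without the 2 Sparc probes, left out after their values were seen, the sums were 6355 to 6930 in EPC_Late, 5962 to 6602 in EPC_acLDL and 5997 to 6484 in EPC. The stem or progenitor list (20 probes, 17 above background on no array) summed to 12194 to 12292 in EPC_Late, 10120 to 10642 in EPC_acLDL and 7173 to 7667 in EPC, with 1 call against EPC, Sox2, a transcription factor of stem cells, at 2.67 (adjusted p = 6e-05 from limma). The study gives Sox2 in the opposite direction for EPC_acLDL as well as EPC_Late. Whether array labels or that table are turned was not tested. Without the 2 Sox2 probes, left out likewise, the sums were 6226 to 6480 in EPC_Late, 5727 to 6396 in EPC_acLDL and 5755 to 6211 in EPC. The smooth muscle or pericyte list (16 probes, 9 on no array) summed to 7011 to 7386 in EPC_Late, 6302 to 7120 in EPC_acLDL and 7642 to 7968 in EPC. Against EPC 3 of 6 tested were called lower, both probes of Mylk and that of Tpm2, a tropomyosin, and against EPC_acLDL 1 was called higher, a probe of Mylk, and 0 lower. The hematopoietic list (17 probes, 14 on no array) summed to 6051 to 6423 in EPC_Late and 5769 to 6301 in the other lines, with 1 call against EPC, lower, for Coro1a, an actin-binding protein, at -1.29 (adjusted p = 0.0147 from limma), and a median difference of -0.71 over its 3 probes tested. The epithelial list (16 probes, 14 on no array) summed to 6219 to 6289 in EPC_Late and 5419 to 6001 in the other lines. The part of such cells in the levels of the members was not tested, and in bulk RNA fewer cells of a type and less RNA per cell cannot be told apart. Of 33 probes for endothelial genes 31 were above background on no array, those of Pecam1 and Cdh5 included. Kdr, the gene of Flk-1, was so on all 6, with normalized log2 means of 7.91, 7.89 and 7.92 in EPC, EPC_acLDL and EPC_Late. The 33 summed to 10239 to 11455 in EPC and EPC_acLDL and 11235 to 11939 in EPC_Late. Over the arrays 2177 to 2365 probes were above background, only 8.47% to 9.2% of all probes, and the lowest such intensity was 416.5 to 468.6.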

How the data were processed

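Total RNA of 3 mouse lines was read on 6 MouseRef-8 v2.0 BeadChip arrays. The authors summarized the beads in BeadStudio with its local background correction and deposited linear, not normalized intensities with a detection p-value beside each. The deposited p-value's smallest step (0.001253) corresponds to 798 negative controls. Genome build and probe sequences are not given in the sources used here, and 0 of the 3 member names had an entry in the RefSeq promoter table, so that the planned motif search was not made.

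Members were taken from the deposited detection p-values. Intensities went through limma 3.58.1 in R 4.3.3: neqc with an offset of 16, then lmFit and eBayes over all 6 arrays without covariates, Benjamini-Hochberg adjustment and a threshold of 0.05. The test covered the 2333 of 25697 probes that some line showed above background (below 0.05) on its 2 arrays. These steps were tested on simulated data. Members and gene lists were chosen with earlier results of these data known. The text names the members, other probes of their names, the probes nearest each limit and, in the lists described, some of those past the threshold (the rule takes up to 4 per list by size of difference). Gene names were matched to a GRCm38.p6 table for spelling. The number of arrays limits the precision. Alternatives were other background corrections, scalings, filters, limits, variance models, a replicate block, the methods' t-test, and each array left out in turn.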

Additional observations from a re-analysis of the deposited data

How the results depend on the processing

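The number of members (3) was 39 with EPC_Late below 0.05, and 28, 1 and 0 with the other lines at or above 0.01, 0.1 and 0.2. It was 3 to 7 with single arrays left out, with 5 without EPC_acLDL replicate 1 and 7 without EPC_Late replicate 1. On the log2 scale the median difference to EPC (3.07) became 2.34 in the setting with an offset of 50, 1.28 on uncorrected intensities and 1.96 as a lower bound. That to EPC_acLDL (2.41) was 1.56, 0.90 and 2.03 in the same order, and 2.22 to 2.58 with single arrays left out. Between EPC_acLDL and EPC limma called 0 members (2 at an unadjusted p under 0.05), and 1 at an offset of 50, on uncorrected intensities, with arrays not normalized and under robust limma-trend. These counts rest on signals that the selection held below background, so that nothing is read from them. The methods' t-test after adjustment called 0 list probes in either comparison of EPC_Late, where limma called 28 in each. With single arrays left out, the calls were 19 to 26 against EPC and 11 to 23 against EPC_acLDL, the latter 11 or 12 when an EPC_acLDL array was dropped and 14 or 15 when an EPC_Late array was. The spread of a line reduced to 1 array was taken from the other lines.

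After quantile normalization same-numbered arrays deviated together at correlations of 0.02 to 0.08, so that the numbers were not taken as pairs. That scaling removes a shift shared by a whole array. Before it, median intensity was higher on replicate 2 in each line. It was 342.4 against 311 in EPC, 345.2 against 304.6 in EPC_acLDL and 358.7 against 336.6 in EPC_Late. The deposited intensities printed here carry that shift. With the replicate block, 0 members and 28 and 26 list probes were called. Signal over background limits every fold of a member to a bound.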
